A study of Homo sapiens with 6 samples.

Results

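The MHC class II genes were followed on the 6 arrays through every probe set, the group of oligonucleotides that measures a transcript, annotated to 1 or more of 10 genes: HLA-DRA, HLA-DRB1, HLA-DPA1, HLA-DPB1, HLA-DQA1, HLA-DQB1, HLA-DMA, HLA-DMB, CD74 and CIITA. These were 27 of 22215 probe sets. Of the 27, 22 carried 1 gene symbol and 5 were shared by several class II genes. The cells were A-498, an established human line from a renal cell carcinoma. In each of 3 numbered replicates, called experiments here, 1 culture was kept for 120 h without drug and 1 with 1000 µM zebularine. Zebularine is a nucleoside drug that blocks DNA methyltransferases. The labels give the replicate number and do not say whether arrays of the same number were handled together. Cells were split and fed during that time, and an XTT viability assay is described as showing no clear toxicity. Both cultures shared line, medium and harvest time, and no interferon is named among the treatments. The replicates are called biological in the labels. All come from 1 line, so p-values reflect only how these cultures varied.

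MHC class II molecules are pairs of an alpha and a beta chain that carry peptides from the endosomal pathway to the cell surface and show them to helper T cells. The invariant chain CD74 guides new pairs to endosomes and fills the groove, and HLA-DM exchanges the remnant of CD74 for a peptide. Transcription of these genes depends on the coactivator CIITA, which binds the RFX, CREB and NF-Y factors on the X and Y boxes of each promoter. CIITA is constitutive in B cells and dendritic cells, while most epithelial cells, kidney tubule included, turn it on when they meet interferon gamma.

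The X and Y boxes are what joins these genes to 1 regulator, so promoter stretches of 120 bases are shown for HLA-DRB1 and HLA-DMA, for HLA-DMB, the partner of HLA-DMA, and for HLA-DQB1 and CD74, which share the CIITA pathway. They run from 120 bases to 1 base before the start site, 5′ to 3′ on the gene's strand, from RefSeq on GRCh38.p14. Capitals mark the letters ACNGATG, from the core of the X box, and ATTGG, the Y box core that NF-Y reads as CCAAT, each on either strand.
HLA-DRB1 promoter, chr6:32589849-32589968, minus strand: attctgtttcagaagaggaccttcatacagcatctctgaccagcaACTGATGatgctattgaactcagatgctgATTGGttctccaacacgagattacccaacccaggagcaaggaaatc
HLA-DMA promoter, chr6:32953098-32953217, minus strand: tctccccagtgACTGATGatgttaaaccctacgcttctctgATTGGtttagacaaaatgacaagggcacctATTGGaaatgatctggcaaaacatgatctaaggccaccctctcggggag
HLA-DMB promoter, chr6:32941029-32941148, minus strand: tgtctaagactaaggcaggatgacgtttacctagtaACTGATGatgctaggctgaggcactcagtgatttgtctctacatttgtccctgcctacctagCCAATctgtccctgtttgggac
HLA-DQB1 promoter, chr6:32666658-32666777, minus strand: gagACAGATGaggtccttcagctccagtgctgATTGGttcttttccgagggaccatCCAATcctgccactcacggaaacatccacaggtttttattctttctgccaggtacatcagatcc
CD74 promoter, chr5:150412911-150413030, minus strand: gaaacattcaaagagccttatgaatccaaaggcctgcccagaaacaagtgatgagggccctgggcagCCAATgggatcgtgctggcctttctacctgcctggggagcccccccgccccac
The RefSeq promoter table held 8 of the 10 genes in 9 windows of 300 bases each, of which HLA-DPA1 had 2. Both sets of letters, which do not overlap, were searched on both strands. ACNGATG followed by ATTGG on the same strand after 10 to 30 bases was found for HLA-DRB1, HLA-DQB1 and HLA-DMA, with 22, 22 and 23 bases between them. The same spacing was met in 0.154% of all 35116 windows, ACNGATG alone in 7.65% and ATTGG alone in 34.6%. HLA-DMB had both sets of letters with ATTGG on the opposite strand. The window of CD74 had ATTGG on the opposite strand 53 bases before the start site, and its single ACNGATG lay further out, 209 bases before it. HLA-DRB1 had 1 CG dinucleotide, the site of DNA methylation, in its window, HLA-DMA 3, HLA-DMB 4, HLA-DQB1 7 and CD74 3. The other members had 2 (HLA-DPB1), 1 (HLA-DQA1) and, in its separate windows, 27 and 4 (HLA-DPA1), and the median over all windows was 14. A stricter form, ANACNGATG then GATTGG at the same spacing, was found in 1 of the 9 windows, that of HLA-DQB1, and in 0.0199% of all windows. The letters and the spacing were chosen after the promoters of these genes had been read and several other patterns had been tried, and the 5 promoters were picked after the signals were seen. The matches therefore carry no weight as evidence, and they do not show that a factor was bound.

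Each array had been scaled to a trimmed mean signal close to 500.2, with medians from 118 to 141. GAPDH, whose 3′ over 5′ signal is a sign of RNA integrity, ran from 1.07 to 1.52 on untreated and from 1.01 to 1.34 on treated arrays, with the treated value lower in every experiment. The same ratio of ACTB went from 3.10, 2.38 and 1.71 untreated to 5.25, 2.06 and 1.49 treated, so it was higher on the treated array in experiment 1, where zebularine 1 had the highest value of the 6, and lower in experiments 2 and 3. The part of these ratios in the results was not tested. The kidney carcinoma markers listed for A-498 differed widely in signal. Over 6 of 7 markers they summed to 42564 to 58441 on untreated and 37090 to 55389 on treated arrays. Most of each sum came from VIM at 19723 or more, KRT18 at 12161 or more and KRT8 at 3378.6 or more. PAX8 was lower, between 635.8 and 1237.1, and PAX2 lower still, between 132.6 and 262.6. LRP2, a marker of the proximal tubule, stayed between 20.1 and 103. Of the markers of cells that carry class II constitutively, those of B cells were too dim to test and 2 of 7 myeloid ones were tested. For B cells, 3 of 4 markers (MS4A1, CD79A and CD79B) summed to 74.0 to 227 and 98.5 to 205 on untreated and treated arrays. The 7 markers of monocytes, macrophages and dendritic cells summed to 316 to 439 and 471 to 508, higher on every treated than on every untreated array. The tested ones were ITGAM, between 11.7 and 137, and FCER1G, between 64.3 and 211, with differences of 0.94 ± 0.60 and 0.56 ± 0.49 (limma, adjusted p = 0.559 and 0.685). Of the untested ones CSF1R reached 185, ITGAX 89.7, CD14 and TYROBP 60.7 and LYZ 16.9. The part of these markers in the results was not tested. T cell markers (3) summed to 92.0 to 196 and 103 to 194, pan-leukocyte markers (2) to 101.3 to 135 and 45.5 to 194, endothelial markers (3) to 91.1 to 141 and 147 to 191, and melanocyte markers (2) to 51.2 to 206 and 108 to 199. Like the myeloid sum, the endothelial sum was higher on every treated than on every untreated array. Its VWF read 11.4, 7.1 and 20.5 untreated and 98.3, 99.5 and 22.1 treated. No marker was listed at 0.

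HLA-DRB1, the beta chain of HLA-DR, was lower after zebularine, and with all arrays in the fit its own probe set was the 1 class II probe set of 8 tested that limma called, against 0.620% of all tested ones. This probe set (208306_x_at) read 460, 422 and 406 on the untreated arrays of experiments 1, 2 and 3 and 127, 89.6 and 135.5 on the treated ones. Every treated array lay below every untreated array, and the means were 430 ± 27.7 and 117 ± 24.4 (SD, n = 3). HLA-DRB1 fell by 1.75 ± 0.30 on the log2(signal + 16.34) scale, where ± is a standard error and the added constant shrinks the change of dim genes (limma, Benjamini-Hochberg adjusted p = 0.0295). Within experiments the difference was -1.73, -2.05 and -1.48. In a mass of cultured cells, fewer cells with the transcript and less of it per cell cannot be told apart. The suffix x_at marks probe sets that can also bind related transcripts, and the DR beta genes are close copies, so this signal may hold HLA-DRB3, HLA-DRB4 or HLA-DRB5 as well.

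Whether HLA-DRB1 was called depended on which arrays were in the fit, and its size varied less. Without untreated 1, untreated 3, zebularine 2 or zebularine 3 its adjusted p in limma was 0.0983, 0.0994, 0.155 and 0.0647, with differences of -1.70, -1.79, -1.59 and -1.85. It remained called without untreated 2 or zebularine 1 (limma, adjusted p = 0.0467 and 0.0335). With the experiment as a block, that is, on the differences within experiments, it was called with all arrays and without any 1 experiment (limma, adjusted p from 0.00194 to 0.0376).

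**Figure D1:**
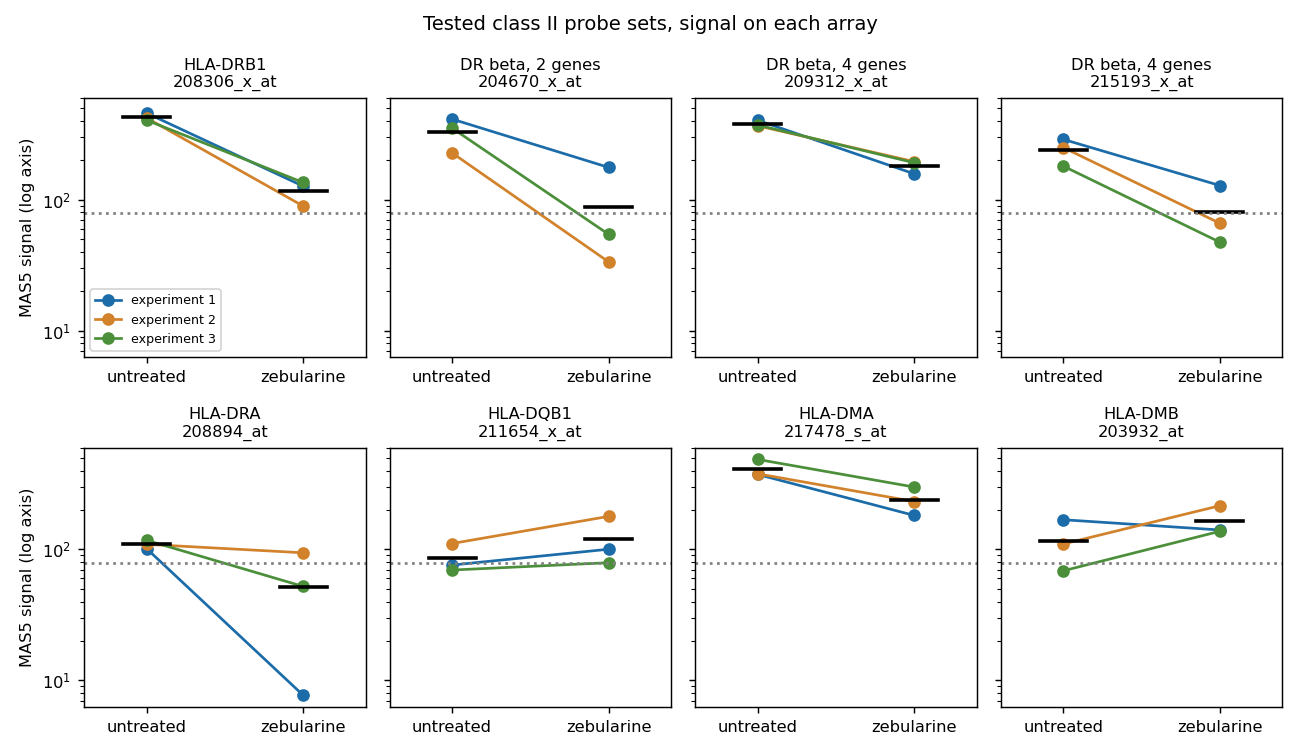
Signal of the 8 tested class II probe sets on each array (log axis), with lines joining the untreated and treated array of 1 experiment, bars at the group means and a dotted line at the floor of 78.6 used to choose tested probe sets. For HLA-DRB1, HLA-DRA, HLA-DMA and the 3 shared DR beta probe sets (the pair marked 4 genes also includes HLA-DQB1) every treated array lies below every untreated one, while HLA-DQB1 and HLA-DMB overlap.

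Of the 4 shared probe sets that include HLA-DRB1, 3 were bright enough to test. With all arrays they were called lower with the experiment as a block and not without it. Over all tested probe sets 4.22% were called with the block, 2.32% counting lower calls only, and 0.620% without it. Probe set 204670_x_at, annotated to HLA-DRB1 and HLA-DRB4, went from 413, 228 and 353 to 177, 33.5 and 54.4, which is -1.94 ± 0.48 (adjusted p = 0.102 in limma; with the block 0.0121). Its treated arrays were spread more widely than those of the HLA-DRB1 probe set, from 33.5 in experiment 2 to 177 in experiment 1, yet all lay under the lowest untreated value. Without zebularine 1 it was also called without the block, at -2.51 (limma, adjusted p = 0.0266). Probe set 215193_x_at, shared by HLA-DRB1, HLA-DRB3, HLA-DRB4 and HLA-DQB1, went from 289, 250.5 and 181 to 128.5, 66.1 and 47.4, which is -1.47 ± 0.42 (adjusted p = 0.164 in limma; with the block 0.0379). Probe set 209312_x_at, shared by HLA-DRB1, HLA-DRB4, HLA-DRB5 and HLA-DQB1, had close replicates. It read 405, 367 and 373 untreated and 158, 196 and 192 treated, which is -1.01 ± 0.28 (adjusted p = 0.147 in limma; with the block 0.0482). With the block, leaving out experiment 1 or 3 ended the call of this probe set (limma, adjusted p = 0.26 and 0.116), and leaving out any 1 experiment ended that of 215193_x_at (0.135, 0.0615 and 0.0911). The probe set shared by most genes, 221491_x_at, annotated to 5 DR beta genes and HLA-DQB1, was dim throughout, between 2.2 and 61.3. These 5 probe sets overlap in what they bind and are not 5 independent measurements.

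HLA-DRA, the alpha chain that pairs with every DR beta chain, was near the floor. Its tested probe set (208894_at) read 102, 109.5 and 118 on the untreated arrays and 7.70, 94.3 and 52.2 on the treated ones. The groups did not overlap, but the treated array of experiment 2 was little below its control. The difference was -1.15 ± 0.63, with a 95% interval from -2.51 to 0.21 (limma, adjusted p = 0.486), and -0.53 without zebularine 1. That array had the highest ACTB ratio of 3′ to 5′ signal, while its GAPDH ratio was 1.34 against 1.52 on untreated 1. The part of these ratios in the difference was not tested. The second HLA-DRA probe set (210982_s_at) was dim, between 8.80 and 55.0, and differed by 1.29, -1.46 and 0.08 in experiments 1, 2 and 3. HLA-DRA passed the filter on dim probe sets through its 3 untreated arrays and 1 treated one, so its presence among the tested ones already favours a lower treated value, as it does for 204670_x_at and 215193_x_at.

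Neither chain of HLA-DM, the peptide editor of the class II pathway, was called. HLA-DMA (217478_s_at), the alpha chain, read 374, 379 and 488 untreated and 182, 232.5 and 300 treated. Every treated array lay below every untreated one, and the differences within experiments were -0.98, -0.67 and -0.67. The mean difference was -0.77 ± 0.29, with a 95% interval from -1.40 to -0.15 before adjustment (limma, adjusted p = 0.292), so HLA-DMA was not called. HLA-DMB (203932_at), the beta chain, read 169, 110 and 68.7 untreated and 141, 216 and 138 treated. It was lower in experiment 1 and higher in experiments 2 and 3, with overlapping groups, and its mean stood 0.50 ± 0.41 higher (adjusted p = 0.661 in limma, 95% interval from -0.39 to 1.39). It was 0.78 without untreated 1, 0.22 without untreated 3 and 0.31 without zebularine 2. Whether the 2 chains differed from each other was not tested.

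HLA-DQ and HLA-DP, the other surface molecules of class II, gave little signal. HLA-DQB1, the DQ beta chain, had 7 probe sets of its own, and 1 was tested (211654_x_at), at 76.0, 111 and 69.6 untreated and 100.4, 179 and 79.2 treated. This probe set was higher on the treated array in each experiment with overlapping groups, by 0.37 ± 0.46 (limma, adjusted p = 0.792), and 0.07 without zebularine 2. It passed the filter through its 3 treated arrays and 1 untreated one. The other 6 ran from 3.50 to 117, and 2 of their 36 values reached the floor of 78.6. Their directions differed: 211656_x_at read 50.4, 117 and 75.2 untreated and 9.60, 7.90 and 31.9 treated, while 212998_x_at was higher on every treated than on every untreated array at signals from 4.40 to 13.7. HLA-DQA1, the DQ alpha chain, stayed between 2.30 and 69.5 over its own 2 probe sets, with none of 12 values at the floor. The probe set that it shares with HLA-DQA2 stayed between 2.10 and 9.00. HLA-DPA1, the DP alpha chain, stayed between 2.40 and 69.3 over 3 probe sets, of which 213537_at was higher on the treated array in each experiment, 211990_at in 2 of 3 and 211991_s_at in 1 of 3. HLA-DPB1, the DP beta chain, read 77.1, 92.4 and 90.8 untreated and 13.7, 15.7 and 60.3 treated at its single probe set. Its groups did not overlap, and it missed the filter because only 2 arrays reached the floor. Fitted without that filter, HLA-DPB1 differed by -1.29 (limma, adjusted p = 0.463).

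CD74 and CIITA, which most class II surface expression needs, were at or near the level of dim probe sets in both groups. CD74 (209619_at) read 31.0, 106 and 10.9 untreated and 14.8, 19.5 and 90.1 treated. It was lower in experiments 1 and 2 and higher in experiment 3, with differences of -0.60, -1.77 and 1.97. CIITA, the master regulator, had 3 probe sets, and 1 of their 18 values reached the floor, the untreated array of experiment 2 at 107 for 210925_at. Probe set 205101_at read 9, 11 and 27.5 untreated and 4.20, 5.40 and 4.90 treated, all far under the floor. The other 2 changed direction between experiments: 210925_at differed by 1.54, -2.05 and 1.23, and 211884_s_at by 0.31, -1.07 and -1.11.

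Over all 27 probe sets, dim ones included, 18 had a mean difference below 0 and 9 above it. That is 66.7%, against 48.3% of all 22215 probe sets, and the median difference was -0.56 against 0.02. On 10 of the 27, or 37.0%, every treated array lay below every untreated array, against 6.76% of all probe sets. The same 10 were the ones lower in each of the 3 experiments, against 17.0% of all. They were the HLA-DRB1 probe set, 3 shared DR beta probe sets, 1 each of HLA-DRA, HLA-DMA, HLA-DPB1 and CIITA and 2 of HLA-DQB1. On 1 probe set, that of HLA-DQB1 at 212998_x_at, every treated array lay above, against 7.94% of all. Of the 8 tested members limma called 1, against 0.620% of 13545 tested probe sets, or 0.295% counting lower calls only. With the experiment as a block it called 4, all lower, against 4.22% of the tested probe sets, or 2.32% counting lower calls only. All 4 are annotated to HLA-DRB1, and 215193_x_at and 209312_x_at also to HLA-DQB1. Limma was also fitted over all 22215 probe sets, without the filter on dim ones. In that fit 8 of the 27 had an unadjusted p under 0.05, against 2148 of all. After adjustment limma called 0 of the 27, against 0.189% of all. With the block and no filter it called 2, the HLA-DRB1 probe set and 204670_x_at, against 1.78% of all. Several of these probe sets bind the same transcripts and are not independent, so these shares are descriptions.

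**Figure D2:**
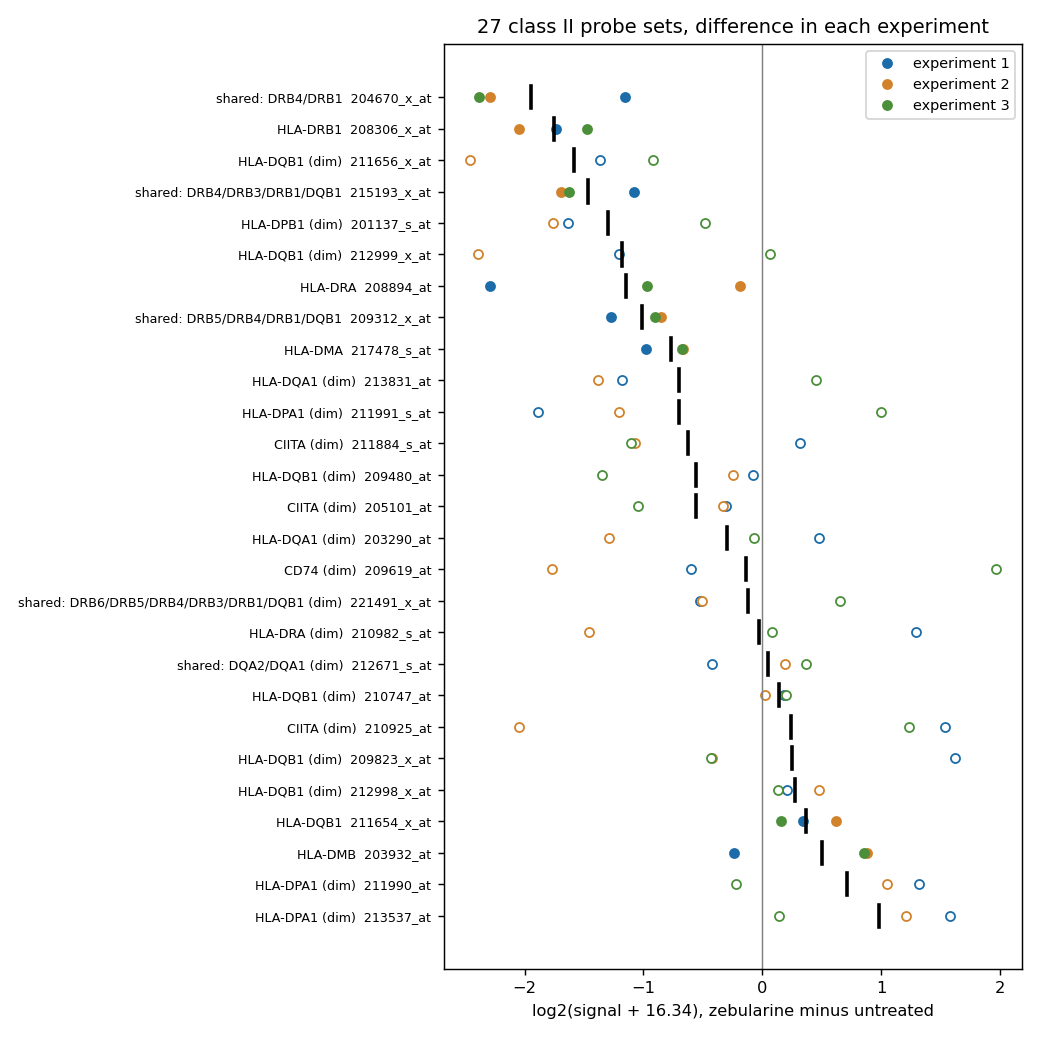
Difference between the treated and untreated array of each experiment (zebularine minus untreated, log2(signal + 16.34)) for the 27 class II probe sets, ordered by their mean, the vertical bar. Filled points are the 8 tested probe sets and open points the 19 dim ones, whose 3 experiments often lie on both sides of 0. The lowest means are those of 204670_x_at and of HLA-DRB1, and the highest are those of 2 of the 3 HLA-DPA1 probe sets, which are dim.

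The other genes of the pathway were read from 7 lists by role, 1 probe set per gene. Of 70 genes, 58 had a probe set of 1 symbol and 50 were tested. Limma called 0 of the 50 without the block and 3 with it, 1 higher and 2 lower. Without the block 8 of the 50 had an unadjusted p under 0.05 (limma), against 1702 of all 13545 tested probe sets. Leaving out experiment 1, 2 or 3 from the fit with the block gave 0, 5 and 2 calls. Over all 7938 tested genes 0.642% were called without the block and 4.45% with it. Of the 50, 24 had a difference above 0 and 26 below, with a median of -0.03 against -0.01 over all tested genes.

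The factors that sit on class II promoters gave signals above the floor for 7 of 8 genes with a probe set, and none of 7 tested was called. RFX5, the DNA-binding subunit of RFX, read 684 ± 148 untreated and 934 ± 368 treated (SD, n = 3), higher on the treated array in each experiment at 0.39 ± 0.32 (limma, adjusted p = 0.662). RFXANK, another RFX subunit, read 616 ± 33.2 and 533 ± 95.4, at -0.22 ± 0.25 (limma, adjusted p = 0.776). RFXAP, the third subunit, was too dim to test, between 21.4 and 195. The median over the 7 tested factors was -0.06.

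Of 10 tested regulators that act upstream of CIITA, 5 lay above 0 and 5 below. IRF1, which binds the interferon-responsive promoter of CIITA, read 529, 170 and 312 untreated and 306, 322 and 329 treated, at 0.06 ± 0.36 (limma, adjusted p = 0.969). Its treated arrays were close together and its untreated arrays far apart, and the treated value was lower in experiment 1 and higher in experiment 2. MYC, a growth regulator listed here as a candidate repressor of class II, read 4204.5, 2639 and 3135 untreated and 919.9, 1986 and 1485 treated. It differed by -1.22 ± 0.31 (limma, adjusted p = 0.106) and fell with the block (adjusted p = 0.0315). Partners and silencers of CIITA had none of 10 called, with a median of 0.10. Their brightest genes, the histone deacetylase HDAC1 and the chromatin remodeller SMARCA4, differed by 0.36 ± 0.23 and -0.26 ± 0.24 (limma, adjusted p = 0.549 and 0.696).

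Of 10 tested genes of processing and trafficking, limma called 0 without the block and 2 with it. With the block 4.45% of all tested genes were called. Without it 3 of the 10 had an unadjusted p under 0.05 (limma), against 1702 of all 13545 tested probe sets. The 2 called genes were both proteases. They went in opposite directions, and 0 pathway genes were called with the block when experiment 1 was left out. CTSL, cathepsin L, read 3404, 5218 and 3918 untreated and 7069, 7679 and 6545 treated, every treated array above every untreated one. Its difference was 0.78 ± 0.24 (limma, adjusted p = 0.209), and it rose with the block (adjusted p = 0.0211). CTSD, cathepsin D, read 1585.5, 1164 and 2431 untreated and 758, 729 and 657 treated, every treated array below every untreated one. It differed by -1.19 ± 0.29 (limma, adjusted p = 0.0937) and fell with the block (adjusted p = 0.022). Over the 10 the median was -0.15, with 4 above 0 and 6 below.

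MHC class I chains, which present peptides to cytotoxic T cells, were bright and differed little. None of 6 tested genes was called, with a median of -0.07. B2M, the shared light chain, read 24301 ± 5956 untreated and 27361 ± 6477 treated, and HLA-C 16896 ± 3792 and 14580 ± 2083 (SD, n = 3). Their differences were 0.17 and -0.20 (limma, adjusted p = 0.846 and 0.797), with 95% intervals from -0.43 to 0.77 and from -0.75 to 0.35. Of the costimulation genes none of 6 was called. CD58, the ligand of CD2 on T cells, was higher on every treated than on every untreated array, at 787 ± 25.5 and 1273 ± 221 (limma, adjusted p = 0.279), and the adhesion molecule ICAM1 differed by 0.06. Among the other class II genes 1 of 5 with a probe set was tested, the pseudogene HLA-DRB6, at -1.05 ± 0.65 (limma, adjusted p = 0.54), with overlapping groups. It passed the filter through its 3 untreated arrays and 1 treated one, which favours a lower treated value. Within experiments 1, 2 and 3 it differed by 0.01, -2.40 and -0.76.

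**Figure D3:**
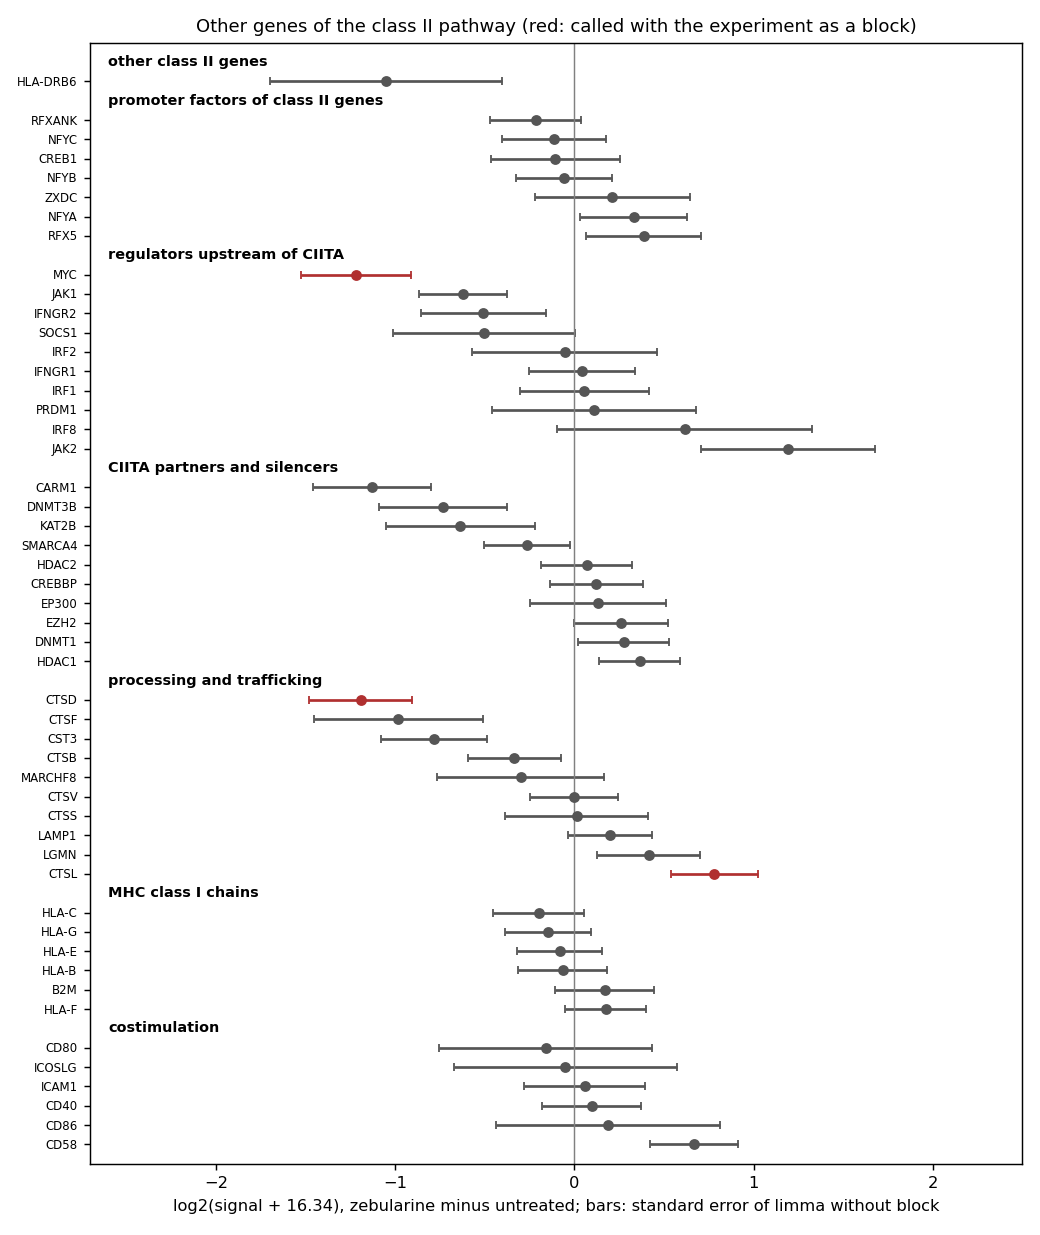
Difference between treated and untreated arrays (zebularine minus untreated, log2(signal + 16.34), bars are standard errors from limma without the block) for the 50 tested genes of the 7 pathway lists. MYC, CTSD and CTSL, in red, were called with the experiment as a block, and the 6 class I chains lie close to 0.

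Among genes other than the class II members, those whose pattern over the 6 arrays was most like that of HLA-DRB1 came from outside antigen presentation. Class II member probe sets and those shared by several genes were not candidates, so they could not appear here. Likeness was the root mean square distance between log2 values centred on each gene's mean, over 7933 other genes, whose median distance was 0.95. The nearest 5 were MMP24 at 0.22, MLLT3 at 0.22, SFRP4 at 0.24, SOX4 at 0.24 and FN1 at 0.24. MMP24 is a membrane matrix metalloproteinase, MLLT3 a subunit of a transcription elongation complex, SFRP4 a secreted Wnt modulator, SOX4 a transcription factor and FN1 fibronectin. All 5 were lower on every treated than on every untreated array, as the choice by likeness leads to.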

How the data were processed

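Total RNA of 6 cultures was hybridised to 1 Affymetrix array each. The authors deposited 1 linear intensity per probe set and array, made with MAS5 per the submitters' processing notes. Which version and parameters were used is not given in the sources used here. Because that method corrects for background and mismatch probes, dim values are noisy. Groups and replicate numbers came from the sample titles, and arrays with the same number are called an experiment.

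Of 22277 probe sets 62 controls were left out. Values were taken as log2(signal + 16.34), the pseudocount being the median of all values divided by 8. The 13545 probe sets at or above 78.6, the 40th percentile, on at least 3 of 6 arrays were tested with limma 3.58.1 in R 4.3.3 (lmFit, eBayes with trend, two-sided), adjusted by Benjamini-Hochberg over all 13545, with calls at an adjusted p under 0.05. Figures used matplotlib 3.10.9.

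Both arrays of an experiment share its name in the labels and deviated together from their groups (r = 0.323, 0.21 and 0.272 over probe sets, at most -0.0606 between other numbers), so values with the experiment as a block are given where they change a call. No 2 arrays shared over 0.198% of values. The fit was tested on simulated arrays. Their noise model was replaced by a more favourable one after the first version had recovered few changes, so no statement about power rests on that test.

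Symbols came from the platform annotation, updated through Entrez numbers: 19070 probe sets had 1 symbol, 1043 several and 2164 none listed. All tested members are named with every value, untested ones by range or value. Of each pathway list the text names up to 4 genes called in either fit or else the 2 brightest tested, plus IRF1 and the RFX subunits, and the 5 genes nearest to the tested member of 1 symbol with the largest difference. Members and lists were chosen with earlier results of these data known. Settings tried were pseudocounts, filters, normalizations, the variance trend, the block, and leaving out arrays or experiments.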

Additional observations from a re-analysis of the deposited data

How the results depend on the processing

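Directions of the 8 tested class II probe sets were the same under every alternative that gave a value (24 or 25 each), but calls were not. Limma called 1 class II probe set with all arrays. It called 0 without the filter (8 of 27 at an unadjusted p under 0.05, against 2148 of all 22215). Without the variance trend limma also called 0 (6 of 8 at an unadjusted p under 0.05, against 1532 of all 13545). With the experiment as a replicate block it called 4, also with quantile normalization or with a pseudocount of 4.08 or 65.4, and 2 with the block and no filter, settings combined after seeing the data. Leaving out 1 array gave 0 to 2 calls, 1 experiment 0, and 1 experiment with the block 2 to 3. The HLA-DRB1 difference ran from -1.89 to -1.45 over all alternatives. Its adjusted p was 0.0681 without the filter and 0.087 without the trend (limma). The HLA-DRB1 call also ended in the fit without a block when either experiment 1, 2 or 3 was left out (limma, adjusted p = 0.103, 0.198 and 0.308). The cause was not tested.

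Over all probe sets limma called 84, and 42 without the filter, 53 without a pseudocount, 55 with a pseudocount of 4.08 and 6 without the trend. Without 1 array it called 0 to 96: 16 without untreated 1, 14 without untreated 3, 0 without zebularine 2 (1315 at an unadjusted p under 0.05) and 15 without zebularine 3. Without 1 experiment it called 0 to 26. With the replicate block it called 572, and 395 with no filter, 592 with quantile normalization, 556 and 596 with pseudocounts of 4.08 and 65.4, and 194, 1023 and 335 without experiment 1, 2 or 3. Of the pathway genes 0 were called without the block, except 1 without untreated 2, and 3 with it under each of these settings, or 0 to 5 without 1 experiment. The filter leaves 19 of the 27 class II probe sets untested, and 3 arrays a group limit the precision of all values.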

Other observations

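Other genes that lie between HLA-DRA and HLA-DPB1 on chromosome 6 in RefSeq were read after the class II values were seen, 1 probe set per gene. All class II genes and pseudogenes of the interval were left out. Of 6 with a probe set of 1 symbol 5 were tested, and limma called 0, without or with the experiment as a block. Without it 1 of the 5 (TAP1) had an unadjusted p under 0.05 (limma), against 1702 of all 13545 tested probe sets. TAP1, a subunit of the transporter that feeds peptides to class I, read 416, 603 and 512 untreated and 736.5, 649.8 and 1043 treated, higher in each experiment, at 0.64 (limma, adjusted p = 0.368). PSMB9, an immunoproteasome subunit, read 486, 855.5 and 1026 untreated and 665, 719 and 1608.5 treated, at 0.28, and PSMB8, another, differed by -0.18. TAP2, the partner of TAP1, differed by 0.28, and BRD2, a bromodomain protein, by 0.39.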
